A study of Mus musculus with 8 samples.

Results

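The genes described here are those whose level in cultured mouse natural killer (NK) cells was set apart on day 4 of activation with interleukin-2 (IL-2), above or below the levels before activation and on day 9. Each gene's mean on the 2 day 4 arrays was set against the average of its day 0 and day 9 means, 2 arrays each. Of 22180 genes with 1 symbol, 13998 reached the array median on at least 2 arrays and were tested, and 8182 lay below that limit. A gene was counted as a peak when this contrast and both single differences, day 4 against day 0 and day 4 against day 9, were called upward. It was counted as a dip when all 3 were called downward. There were 1512 peak genes (10.8% of the genes tested) and 547 dip genes (3.91%). The balance depends on the scaling, since centring each array on its median gave 1066 peaks and 1158 dips. There were 850 peaks and 303 dips without day 4 replicate 1, 905 and 281 without day 4 replicate 2, and 949 and 339 without day 9 replicate 1.

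The study followed NK cells from mouse bone marrow with 8 microarrays (Affymetrix Mouse Gene 2.0 ST), 2 biological replicates for each of 4 groups. Day 0 was naïve cells, freshly isolated. Day 4 cells had been cultured for 4 days in IL-2 at 1000 IU/mL. Day 9 cells had been cultured for 9 days, and IL-2 was given again after the first 4 days. A further day 9 group received 7.5 µM of KU55933, an inhibitor of the ATM kinase, from day 4, and its arrays enter here only as a measure of replicate spread and as added values. All marrow had been depleted of T cells through CD90, cultured cells were collected as adherent cells, and the strain, sex and age of the mice are not in the labels. The source label describes the day 0 cells as activated too, whereas their title calls them naïve, and the title was followed. A vehicle is named in the treatment protocol, but the labels do not say which day 9 arrays received it.

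Values are log2 signals, so 1 unit is a 2-fold difference. Replicates correlated at 0.976 on day 0, 0.994 on day 4 and 0.991 on day 9 across genes, and their median SD was 0.161, 0.079 and 0.089. Each array resembled its own replicate most. Precision is limited throughout by having 2 arrays in a group. Of 14 NK cell markers all were above the array median on both day 4 arrays, and their summed linear signal was 14804 and 15986 on day 0, 26798 and 25538 on day 4, and 25742 and 25397 on day 9. The cells labelled NK cells thus carry NK markers on each day. The sum includes the granule genes Gzmb and Prf1, which were 2.97 and 2.35 higher on day 4 than on day 0. Over the 14 markers the median of day 4 minus day 0 was 0.01. Markers of other blood cells were detected beside the NK markers and are given further on. In RNA from a whole culture, fewer cells that express a gene and less of its RNA in each cell cannot be told apart.

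IL-2 drives resting NK cells into growth and division through STAT5, MYC and the E2F factors. In dividing cells, E2F factors raise the genes of DNA synthesis. Those of mitosis are raised by a MuvB complex containing LIN9 with MYBL2 or FOXM1, through the CHR element near the start site, and by NF-Y at CCAAT boxes. In resting cells the same MuvB core, joined to p130 or p107 in the DREAM complex, represses both sets. DDIT3 and PPP1R15A, whose genes are among the dips, are known as part of the integrated stress response, in which ATF4 raises them when translation is restrained.

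The promoters printed next belong to genes that peaked or dipped and show the elements whose shares are given further on. They are the 120 bases before the start site in the RefSeq annotation of mouse build GRCm38.p6, 5′ to 3′ on the gene's own strand, with matches to 5 searched motifs in capitals (CCAAT, the CHR element TTTGAA, the E2F motif TTTNNCGC, the sterol motif TCACNCCAC and the cyclic AMP response element TGACGTCA). Matches on the opposite strand read as the reverse complement, so ATTGG is CCAAT and TTCAAA is TTTGAA. Depdc1a (chr3:159495313-159495432, plus strand), Kif15 (chr9:122950961-122951080, plus) and Top2a (chr11:99024190-99024309, minus) act in mitosis. In Kif15 the capitals join an E2F match and, directly after it, a CHR match. E2f8 (chr7:48881597-48881716, minus) is an atypical E2F repressor, and Bub1 (chr2:127831860-127831979, minus) is a checkpoint kinase. Hells (chr19:38930870-38930989, plus) is a chromatin remodeller of replicating cells. Ppp1r15a (chr7:45526269-45526388, minus) and Ddit3 (chr10:127290673-127290792, plus) were dips. The first has a TGACGTCA match 12 bases before the start, and the second a CCAAT match 77 bases before it.
Depdc1a: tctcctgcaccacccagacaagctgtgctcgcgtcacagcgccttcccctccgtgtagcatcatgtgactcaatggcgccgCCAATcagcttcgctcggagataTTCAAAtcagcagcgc
Kif15: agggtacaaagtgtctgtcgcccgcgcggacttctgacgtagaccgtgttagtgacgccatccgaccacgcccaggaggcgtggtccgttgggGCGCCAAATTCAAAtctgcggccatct
Top2a: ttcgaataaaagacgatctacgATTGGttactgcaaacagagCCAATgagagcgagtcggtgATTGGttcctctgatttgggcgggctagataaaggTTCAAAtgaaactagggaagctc
E2f8: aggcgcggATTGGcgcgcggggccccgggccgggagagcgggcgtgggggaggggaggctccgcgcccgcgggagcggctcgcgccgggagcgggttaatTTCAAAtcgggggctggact
Bub1: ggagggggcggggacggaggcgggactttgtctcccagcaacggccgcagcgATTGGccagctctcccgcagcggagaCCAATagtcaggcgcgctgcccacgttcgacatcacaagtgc
Hells: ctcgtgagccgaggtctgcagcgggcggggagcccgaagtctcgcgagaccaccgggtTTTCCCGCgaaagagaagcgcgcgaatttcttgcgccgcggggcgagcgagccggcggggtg
Ppp1r15a: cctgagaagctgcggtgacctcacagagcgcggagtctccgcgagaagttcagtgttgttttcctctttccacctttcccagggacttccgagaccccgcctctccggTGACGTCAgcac
Ddit3: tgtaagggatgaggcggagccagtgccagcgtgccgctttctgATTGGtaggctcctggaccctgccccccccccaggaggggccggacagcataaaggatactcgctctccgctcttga

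The contrast alone called 6488 genes (46.3%), 4158 higher on day 4 (29.7%) and 2330 lower (16.6%), by limma with an adjusted p (Benjamini-Hochberg) below 0.05. Most of these did not stand apart from both days. Among the 2646 higher genes that were no peak, 2245 were not called against day 9, and among the 1783 lower genes that were no dip the number was 1282. Gzmb, the granule protease granzyme B, is such a gene, with 9.36 and 9.76 on day 0, 12.64 and 12.43 on day 4, and 12.50 and 12.42 on day 9. Its contrast was 1.52 ± 0.13 (standard error, as throughout), and day 4 differed from day 9 by 0.07 (adjusted p = 0.784). The perforin gene Prf1, the IL-2 receptor alpha chain Il2ra and the STAT5 feedback gene Cish had the same shape, with day 4 minus day 9 of 0.04, -0.07 and -0.18. Cdkn1a (p21, an inhibitor of cyclin-dependent kinases) and Havcr2 (the inhibitory receptor TIM-3) were higher on day 4 than on day 0 and higher again on day 9. Klf2, a quiescence factor, was 4.88 lower on day 4 than on day 0 and lower still on day 9. The 1512 and 547 genes below are therefore a smaller set than the contrast calls.

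**Figure D1:**
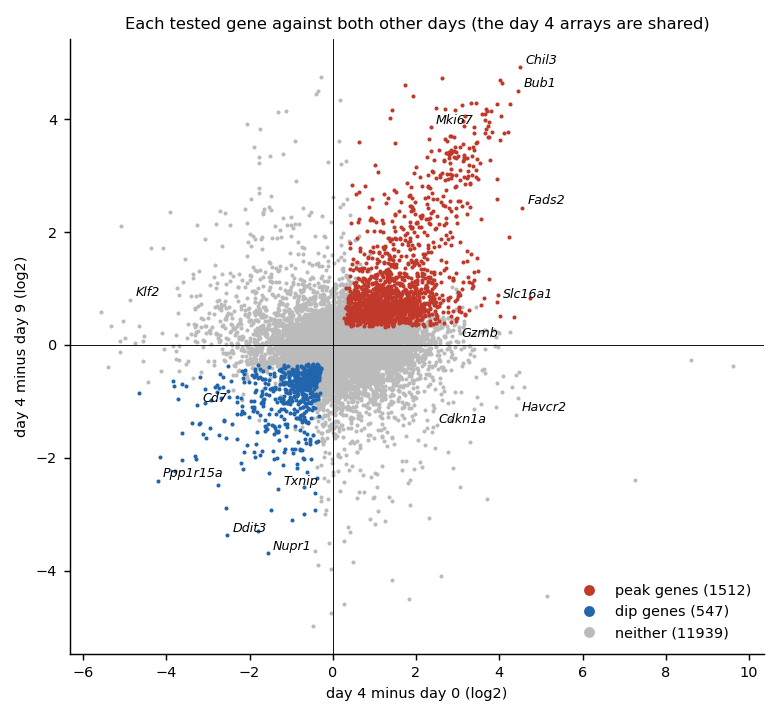
Each point is 1 of 13998 genes, with day 4 minus day 0 (x, log2) against day 4 minus day 9 (y, log2). The 1512 peak genes lie in the upper right and the 547 dip genes in the lower left, while Gzmb and Havcr2 lie to the right with differences from day 9 of 0.07 and -1.23.

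The median contrast was 1.13 in peak genes and -0.87 in dip genes as deposited, which the rule fixes in sign but not in size. For the same genes it was 0.90 and -1.10 with each array centred, so which of the classes moved further has no settled answer. Taking the smaller of the 2 single differences as a gene's prominence, 470 peak genes and 100 dip genes reached 1, 169 and 9 reached 2, and 54 and 0 reached 3. On day 9, 701 peak genes (46.4%) lay within 0.5 of day 0 and are called returned, 672 (44.4%) lay part-way, still above day 0 by more than 0.5, and 139 (9.19%) lay below day 0 by more than that. Of the dip genes 347 (63.4%) had returned, 134 (24.5%) were part-way and 66 (12.1%) stood above their day 0 level. The median gene had lost 68.7% of its day 4 difference by day 9 among peaks and 92.7% among dips. Among peak genes with a prominence of at least 1 the median return was 97.2%.

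Of the 12 peak genes of highest prominence, 5 were on the list of G2/M and mitosis (Bub1, Plk1, Nuf2, Hmmr and Kif15), 1 on that of DNA replication (Rrm2) and 1 among the neutrophil markers (Chil3, a chitinase-like protein of myeloid cells). Bub1, a kinase of the spindle checkpoint, had 4.08 and 4.13 on day 0, 8.60 and 8.53 on day 4, and 4.10 and 4.02 on day 9. Both day 4 arrays stood far above the 4 others, with a contrast of 4.48 ± 0.10 (adjusted p = 6.78e-07), and day 9 minus day 0 was -0.05. Rrm2, the regulated subunit of ribonucleotide reductase, had 4.63 and 5.30 on day 0, 9.27 and 9.19 on day 4, and 4.92 and 5.01 on day 9, a contrast of 4.27 ± 0.17. Averaged over all its transcript clusters, Rrm2 had a contrast of 2.61 and was still a peak. Plk1, which drives entry into mitosis, had 5.97 and 6.0, 9.79 and 9.77, and 5.64 and 5.63 on the 3 days (contrast 3.97 ± 0.09). That the day 4 arrays of these genes do not overlap the others was a condition of the ranking. For Plk1 day 9 stood 0.35 below day 0.

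The other 5, on no list, were Shcbp1, Pclaf, Depdc1a, Cip2a and Stil. Depdc1a, a mitotic regulator, had 3.90 and 3.67 on day 0, 7.67 and 7.95 on day 4, and 3.25 and 2.98 on day 9, and all 4 day 0 and day 9 arrays lay below the array median. Pclaf, a PCNA-binding factor, had 4.79 and 4.97, 8.96 and 8.91, and 5.10 and 4.67, and its day 9 mean had come back to within 0.01 of day 0. Shcbp1, Nuf2, Cip2a, Hmmr, Stil and Kif15 had contrasts between 3.80 and 4.35. With KU55933 the day 9 arrays read 4.58 and 4.41 for Bub1 and 6.02 and 6.01 for Rrm2, values above those of day 9 without it and far below day 4.

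**Figure D2:**
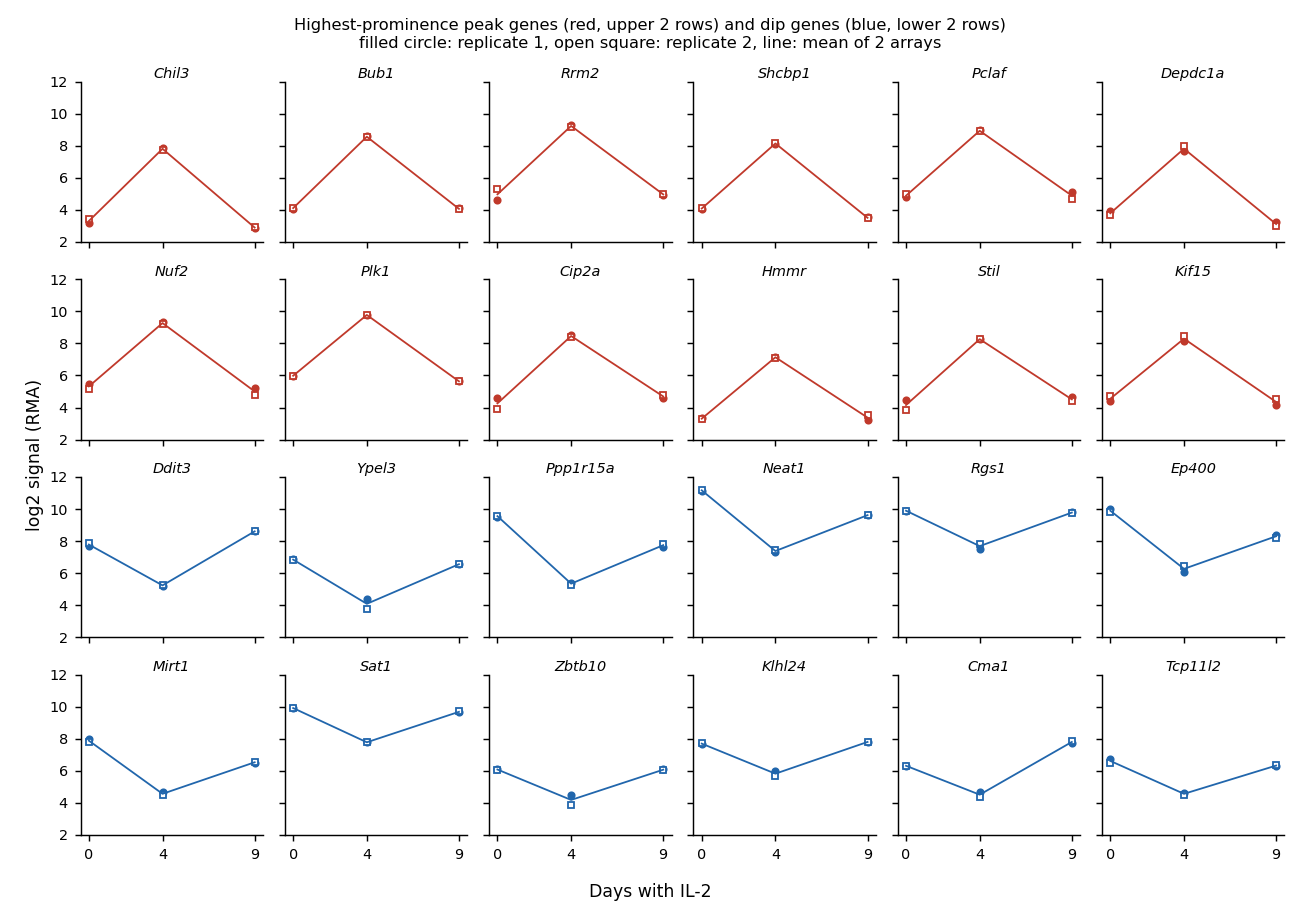
Log2 signal of the 12 peak genes (red) and 12 dip genes (blue) of highest prominence, predicted genes and small RNAs left out, on days 0, 4 and 9, with each array as a point and group means joined. Both day 4 arrays lie above the other 4 in each red panel and below them in each blue panel, as the choice of these genes requires.

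Predicted genes and small RNAs were left out of the ranking of dips, which passed over Snord111, with the largest prominence of all dips (2.58), and Snord99, Snord71 and 4833407H14Rik. The highest of the others was Ddit3 (CHOP, a transcription factor of the integrated stress response), with a prominence of 2.55. It had 7.68 and 7.89 on day 0, 5.19 and 5.29 on day 4, and 8.60 and 8.61 on day 9. Its contrast was -2.96 ± 0.11 (adjusted p = 1.69e-06), and day 9 stood 0.82 above day 0. Ppp1r15a, encoding GADD34, which brings a phosphatase to eIF2 alpha, had 9.52 and 9.59, 5.41 and 5.28, and 7.65 and 7.84 on the 3 days, a contrast of -3.31 ± 0.10. It had regained 57.0% of its loss by day 9. The nuclear long noncoding RNA Neat1 had 11.13 and 11.21, 7.30 and 7.46, and 9.63 and 9.61, with a contrast of -3.01 ± 0.10.

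Other dips regained their day 0 level more fully. Rgs1, which dampens chemokine receptor signalling through G proteins, had 9.90 and 9.89 on day 0, 7.54 and 7.84 on day 4, and 9.81 and 9.75 on day 9. Sat1, the enzyme that acetylates polyamines for their breakdown, had 9.89 and 9.94, 7.78 and 7.79, and 9.66 and 9.71. Ypel3, Zbtb10, Klhl24 and Tcp11l2 also lay within 0.5 of day 0 on day 9, with contrasts from -2.61 to -1.89. Cma1, a mast cell chymase, overshot, with 6.31 and 6.33, 4.66 and 4.37, and 7.77 and 7.84. Ep400, a chromatin remodelling ATPase, and the noncoding RNA Mirt1 regained 56.1% and 59.3%. The contrast of Ep400 was -2.83, but -1.37 when averaged over all its transcript clusters, where it was still a dip.

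Division genes were nearly uniform. Of 61 tested genes of G2/M and mitosis 60 were peaks, against 10.8% of all genes, and the median contrast was 3.19 against 0.03 over all genes. With any 1 array left out, 59 or 60 were peaks. The exception was Pttg1 (securin), with 6.01 and 6.41 on day 0, 5.78 and 5.85 on day 4, and 5.98 and 5.85 on day 9. Mki67, the proliferation antigen Ki-67, had 8.22 and 8.28, 10.66 and 10.54, and 6.88 and 6.61, a contrast of 3.10 ± 0.12. Top2a, the topoisomerase that untangles sister chromatids, had 7.08 and 6.99, 9.91 and 9.84, and 6.18 and 6.16. Both were lower on day 9 than on day 0, by 1.51 and 0.86, and such a fall past day 0 by more than 0.5 held for 24 of the 60, while 36 had returned and 0 were part-way.

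Genes of DNA replication and nucleotide supply were peaks in 55 of 57 cases, against 10.8% of all genes (median contrast 2.09). The count lay between 50 and 56 with 1 array left out. Asf1b, a histone chaperone, had 5.66 and 5.47 on day 0, 8.99 and 9.09 on day 4, and 5.73 and 5.17 on day 9. Pole, the leading-strand polymerase, and Hells had contrasts of 3.22 and 3.17. Averaged over all its transcript clusters, the contrast of Pole was 1.62. The list divided on day 9 into 24 returned genes, 16 part-way and 15 below day 0. The helicase subunit Mcm2 was part-way, with 6.70 and 6.81, 9.43 and 9.29, and 7.39 and 7.56. Dut and Gins4 were no peaks, since their day 4 and day 9 means differed by only 0.08 and 0.29.

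Homologous recombination and the Fanconi pathway, which repair breaks and crosslinks at replication forks, had 29 peaks among 31 genes, against 10.8% of all genes. The count ran from 23 to 29 with an array left out, and the median contrast was 1.64. Fancd2, the clamp of the Fanconi pathway, had 4.30 and 4.61, 7.41 and 7.54, and 4.17 and 4.08. The recombination motor Rad54l, the nuclease Exo1 and the helicase Brip1 had contrasts of 3.19, 3.13 and 3.12. Mus81 and Rad51d did not pass (0.39 and -0.04). The kinase gene Atm, the target of KU55933, was no peak either, with 7.0 and 7.22 on day 0, 7.23 and 7.10 on day 4, and 6.74 and 6.76 on day 9 (contrast 0.23, adjusted p = 0.193).

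Of 19 genes of the E2F and retinoblastoma family and its partners, 13 were peaks, against 10.8% of all genes (median contrast 1.59). E2f8 had 5.48 and 5.45, 8.10 and 8.20, and 3.85 and 4.10, so that day 9 stood 1.49 below day 0. Mybl2 had 5.56 and 5.90, 8.45 and 8.36, and 5.30 and 5.02. Foxm1, counted with the mitotic genes, had a contrast of 2.34 ± 0.13, and the activator E2f1 one of 1.59 ± 0.14. Lin9, the MuvB subunit, had 5.18 and 5.36, 7.02 and 7.22, and 5.21 and 5.36. Rb1, encoding the retinoblastoma protein, was lower by the contrast (-0.31), whereas Rbl2 (p130) and E2f5 did not pass (0.05 and 0.28).

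Cyclin-dependent kinases and their inhibitors went both ways. Of 17 tested, Cdkn3, Ccne1, Cdk2, Cdkn2c and Cdk4 were peaks, and Cdkn1b and Ccng2 were dips, beside 10.8% and 3.91% of all genes. Cdkn3, a phosphatase that acts on CDK1 and CDK2, had 3.88 and 3.62, 7.76 and 7.74, and 3.82 and 4.44. Cdkn1b (p27, an inhibitor associated with quiescence) had 7.81 and 7.90 on day 0, 6.80 and 6.90 on day 4, and 7.67 and 8.0 on day 9. Its 2 day 4 arrays lay below all the others (contrast -1.0 ± 0.12, adjusted p = 0.000377). Ccng2 (contrast -0.73) was no dip without either day 4 array or day 9 replicate 1, and Cdkn2c was no peak without day 4 replicate 2 or day 9 replicate 1. Myc, the growth regulator, did not pass (-0.20, adjusted p = 0.112), while its paralog Mycn had 5.02 and 5.05, 6.79 and 6.68, and 5.46 and 5.47.

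Of 26 targets of p53, 2 were peaks and 3 were dips (5 dips with centring), beside 10.8% and 3.91% of all genes. Gtse1, which is also a mitotic gene, had a contrast of 2.44, and the autophagy regulator Dram1 one of 1.14. Trp53inp1, a stress protein, had 7.99 and 8.05, 6.31 and 6.21, and 8.19 and 8.23. The pro-apoptotic gene Bbc3 (PUMA) had 5.32 and 5.16, 3.89 and 3.93, and 5.26 and 5.60. Both had returned on day 9. The list's median contrast was 0.03 as deposited and -0.20 with each array centred on its median, so it has no settled sign.

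Shares of promoters with each element are given as a description, with no test. Windows of 300 bases, 250 before to 50 after the start site, were searched on both strands in the 10924 of 13998 tested genes that the RefSeq table covers. The CHR element was in 12.2% of all these promoters, in 18.0% of those of peak genes, in 42.3% of those of peak genes with a prominence of at least 2, and in 68.6% (35 of 51) of the G2/M and mitosis promoters. For CCAAT the shares were 38.0%, 46.1%, 69.0% and 70.6%, in the same order. Both elements together were in 5.02% of all promoters and in 54.9% of the mitotic ones. The E2F motif was in 8.06% of all promoters, in 13.7% of the mitotic ones and in 36.2% (17 of 47) of those of DNA replication. The cyclic AMP response element was in 3.07% of all promoters, 3.59% of those of peak genes and 4.01% of those of dip genes, but in 1.64% (1 of 61) of those of dip genes with a prominence of at least 1. In the printed stretches the CHR match lies 16 bases before the start in Depdc1a, 19 in Kif15, 23 in Top2a and 20 in E2f8. Bub1 has CCAAT matches 68 and 42 bases before its start. Hells has its E2F match 62 bases before the start.

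Genes of cholesterol synthesis and its control were higher on day 4 by the contrast in all 21 cases as deposited (29.7% of all genes). With centring 20 were. The list's median contrast was 1.83, and 14 of its genes were peaks (10.8% of all genes). The count of peaks ran from 8 to 15 with 1 array left out. Their return was partial, since 12 of the 14 were part-way on day 9 and 2, Pmvk and Insig1, had returned. Lss, which closes the sterol ring, had 5.19 and 5.02 on day 0, 8.95 and 8.74 on day 4, and 7.76 and 7.61 on day 9, and so kept most of its rise (31.1% returned). Insig1, which restrains the sterol-sensing factor SREBP, had 8.22 and 8.10, 9.51 and 9.47, and 8.25 and 8.42. Sqle and Fdft1, which make squalene and its epoxide, were no peaks, with day 4 above day 9 by 0.23 and 0.26 (adjusted p = 0.225 and 0.396). CCAAT was in 15 of the 17 covered promoters of this list (88.2%), and the sterol motif in 1 (5.88%, against 1.11% of all promoters). That motif was about as frequent in dip genes with a prominence of at least 1 (4 of 61, 6.56%), so it was not particular to this list.

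Of 15 fatty acid genes 6 were peaks (10.8% of all genes). Fads2, the desaturase of polyunsaturated fatty acids, had 4.35 and 4.82 on day 0, 9.16 and 9.10 on day 4, and 6.66 and 6.76 on day 9, a contrast of 3.49 ± 0.14. Fads1 and the elongase Elovl6 followed with 2.44 and 2.36, both part-way. Fasn, the fatty acid synthase, had 7.88 and 8.07, 9.57 and 9.33, and 7.77 and 7.98, so its day 9 level was within 0.10 of day 0. The count of peaks stayed at 6 with any 1 array left out.

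Growth-related lists were mostly raised on both activated days, with smaller peaks. Over all genes 29.7% were higher by the contrast and 10.8% were peaks. Ribosome biogenesis had 37 of 38 genes higher by the contrast and 25 peaks (15 to 31 with an array left out, median contrast 1.19), 23 of them part-way. Rrp9, a part of the particle that processes ribosomal RNA, had 5.79 and 5.70, 7.16 and 7.12, and 5.83 and 6.13. Wdr12, Nolc1 and Bop1 had contrasts of 1.43, 1.27 and 1.34. Glycolysis had 15 of 18 genes higher and 5 peaks (2 to 7), and Gapdh, for instance, stood at 12.22 and 12.27 on day 4 and at 12.24 and 12.26 on day 9. Slc16a1, the lactate carrier, had 5.17 and 5.27, 9.26 and 9.09, and 8.37 and 8.45. The lactate dehydrogenase gene Ldha (contrast 0.87) was no peak after centring, after quantile normalization, or without either day 4 array or day 9 replicate 2.

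The respiratory chain had 24 of 31 genes higher and 9 peaks (2 to 12), beside 29.7% and 10.8% of all genes. Ndufa4, a cytochrome oxidase subunit, had 8.74 and 8.70 on day 0, 9.88 and 9.94 on day 4, and 7.97 and 7.87 on day 9, and fell 0.80 below day 0. Aminoacyl-tRNA synthetases had 16 of 17 genes higher and 2 peaks, Hars and Tars, a share of peaks near that of all genes. The median of day 4 minus day 9 in that list was -0.01, beside 1.98 for day 4 minus day 0.

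**Figure D3:**
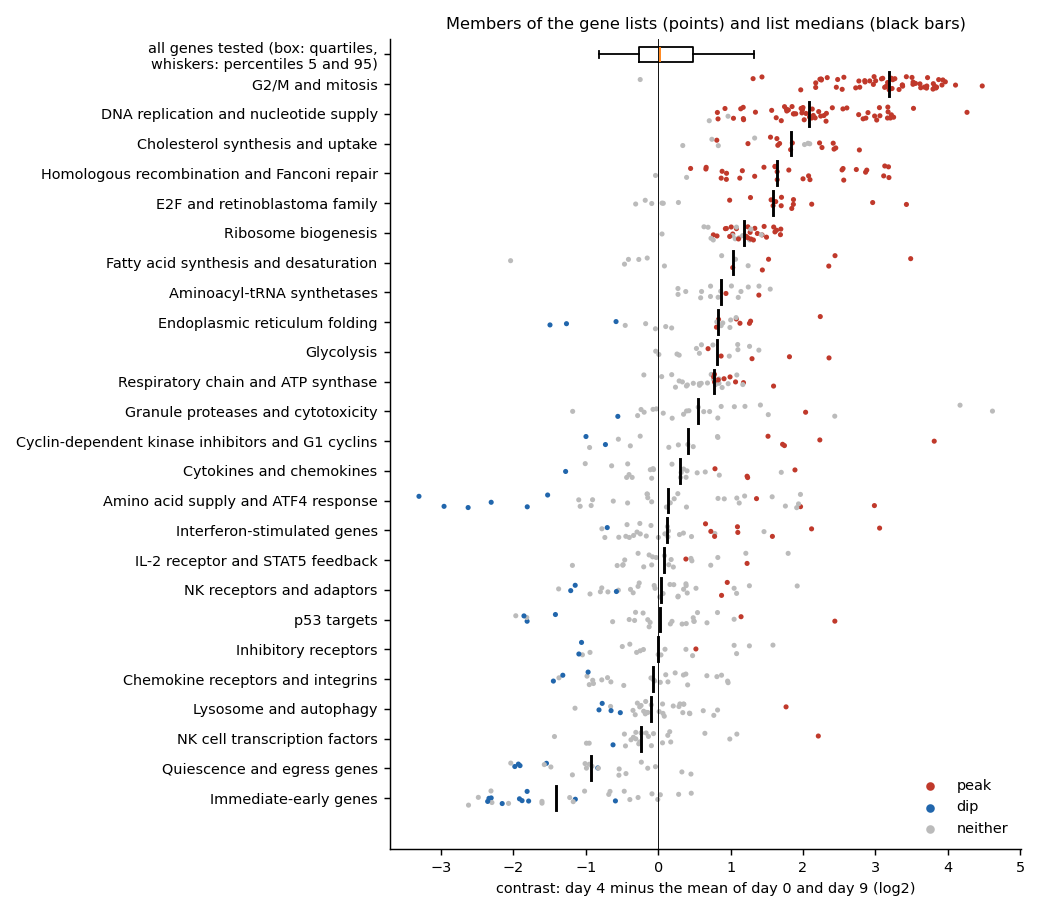
Contrast (x, log2) of each tested member of 25 gene lists, coloured by class, with list medians as black bars and all 13998 genes as a box plot at the top. G2/M and mitosis has the highest median (3.19) and the immediate-early genes the lowest (-1.41), against 0.03 over all genes.

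The list of amino acid supply and the ATF4 response, 34 genes, held both peaks and dips (10.8% and 3.91% of all genes). The 3 peaks were enzymes of one-carbon metabolism, Shmt1, Mthfd1 and Mthfd1l. Shmt1, the cytosolic serine hydroxymethyltransferase, had 4.10 and 4.41 on day 0, 7.46 and 7.16 on day 4, and 4.21 and 4.57 on day 9. The 6 dips were Ddit3, Ppp1r15a, Nupr1, Atf3, Cebpb and Atf5, which encode regulators and not enzymes. Nupr1, a chromatin-bound stress protein, had 6.53 and 6.78, 5.02 and 5.15, and 8.80 and 8.75. Atf5 had 5.89 and 5.77, 5.35 and 5.45, and 8.05 and 8.0, so that most of its range lay between day 4 and day 9. Atf4 itself was lower by the contrast (-0.42) but no dip, and the list median was 0.14 as deposited and -0.09 with centring.

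In the list of endoplasmic reticulum folding, 7 genes were peaks (4 to 9 with an array left out) and 3 were dips among 22 (10.8% and 3.91% of all genes). The chaperone cofactor Sdf2l1 had 6.72 and 6.94, 9.18 and 9.10, and 7.04 and 6.92, and the secreted factor Creld2 a contrast of 1.26. Dnajb9, a chaperone that restrains the stress sensor IRE1, had 9.01 and 9.33, 7.21 and 7.35, and 8.30 and 8.45. Ern1, which encodes IRE1 itself, had 7.91 and 7.96, 7.14 and 7.09, and 8.78 and 8.86, and was the lowest on day 4 and highest on day 9. The third dip was Herpud1 (-0.58).

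Immediate-early genes were lower by the contrast in 24 of 30 cases (16.6% of all genes), with a median contrast of -1.41. There were 10 dips (9 to 15 with an array left out) and 0 peaks, beside 3.91% and 10.8% of all genes. These genes respond within minutes to signals and to tissue handling. Tnfaip3, the NF-kappaB inhibitor A20, had 10.07 and 9.94 on day 0, 6.97 and 6.78 on day 4, and 8.46 and 8.46 on day 9. Nfkbiz, an NF-kappaB cofactor, had 9.08 and 9.18, 5.39 and 5.42, and 6.34 and 6.40. The partial regain is shared by 9 of the 10 dips. Fos and Fosb, the Fos subunits of the AP-1 factor, were 5.56 and 5.12 lower on day 4 than on day 0. Day 4 minus day 9 was 0.59 for Fos (adjusted p = 0.0197), which was lower again on day 9, and -0.12 for Fosb (adjusted p = 0.557).

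Genes of quiescence and egress from tissue gave 5 dips and 0 peaks among 22, with 17 lower by the contrast. Over all genes 3.91% were dips, 10.8% peaks and 16.6% lower. Btg1, an antiproliferative factor, had 9.55 and 9.68, 7.03 and 6.96, and 8.31 and 8.37. Txnip, an inhibitor of glucose uptake, had 10.12 and 10.36 on day 0, 9.02 and 8.84 on day 4, and 11.47 and 11.49 on day 9, so day 9 exceeded day 0 by 1.24. Tsc22d3 (GILZ), a target of glucocorticoids and FOXO, and Pik3ip1, a brake on PI3 kinase, had regained 57.5% and 60.7%. The fifth was Foxo3 (-0.83).

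Of 33 lysosome and autophagy genes, 10 were higher and 6 lower by the contrast (29.7% and 16.6% of all genes). In this list 1 was a peak and 4 were dips (10.8% and 3.91% of all genes). There were 2 to 5 dips with an array left out and 8 with centring. The peak was Gusb, the lysosomal glucuronidase, with 6.50 and 6.65, 8.52 and 8.49, and 6.78 and 7.03. The dips Map1lc3a, Map1lc3b, Ulk1 and Hexa had contrasts between -0.82 and -0.52, and Map1lc3a was no dip without day 4 or day 9 replicate 2, nor Ulk1 without day 4 replicate 1.

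**Figure D4:**
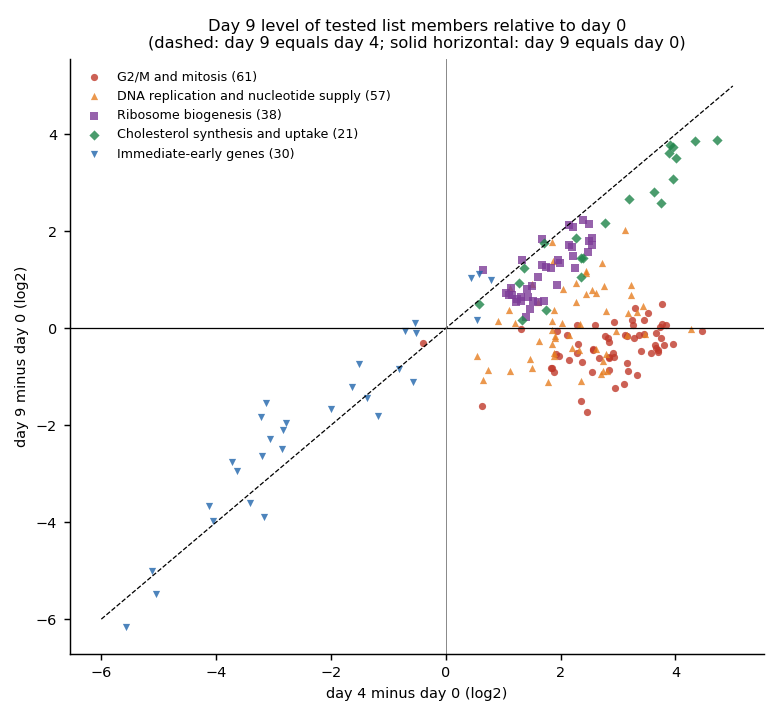
Day 9 minus day 0 (y, log2) against day 4 minus day 0 (x, log2) for the tested members of 5 lists. Most mitotic genes lie far to the right around or below the horizontal line of full return (day 9 minus day 0 has a median of -0.35), whereas most ribosome and cholesterol genes lie between it and the dashed line where day 9 equals day 4.

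The granule list had 15 of 25 genes higher by the contrast but 1 peak, Tnfsf10 (the death ligand TRAIL), and 1 dip (4 with centring), the fusion protein gene Stx11. Over all genes 29.7% were higher, 10.8% peaks and 3.91% dips. Tnfsf10 had 4.54 and 3.71 on day 0, 7.02 and 7.0 on day 4, and 5.73 and 5.93 on day 9. Gzmd had the largest granule contrast, 4.62, yet stood at 12.07 and 12.08 on day 4 against 12.46 and 12.43 on day 9. Its probes may also read the near-identical genes Gzmc to Gzmg, and it was picked after its values were seen.

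Among 32 NK receptors and adaptors there were 2 peaks, Cd27 and Klrb1f, and 3 dips, beside 10.8% and 3.91% of all genes. With centring there were 1 peak and 7 dips. Cd27, a TNF-family receptor of less mature NK cells, had 6.87 and 6.91, 7.73 and 7.77, and 6.74 and 6.66. Hcst (DAP10, the adaptor of NKG2D) had 7.81 and 7.86, 6.28 and 6.15, and 6.88 and 6.91. The inhibitory receptor chain Klrd1 (CD94) had a contrast of -0.58 and was no dip without day 0 replicate 2 or day 4 replicate 2. Klra9 (-1.21) has near-identical relatives. Cd7, a surface marker of NK cells, had the strongest dip of the NK markers, with 10.63 and 10.64, 7.45 and 7.31, and 8.47 and 8.43. Medians of the NK receptor list and of the NK markers were 0.04 and 0.07 as deposited and negative after centring (-0.19 and -0.16).

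NK cell transcription factors had 1 peak and 1 dip among 26 genes, and cytokines and chemokines 4 peaks and 1 dip among 25, beside 10.8% and 3.91% of all genes. Zbtb32, a repressor induced in activated NK cells, had 5.21 and 5.21, 8.57 and 8.52, and 7.62 and 7.28. The dip among the transcription factors was Bhlhe40 (-0.62). The chemokine gene Cxcl10 had 4.61 and 4.72, 5.79 and 6.08, and 3.41 and 3.43, and Xcl1 had 11.02 and 10.97, 11.64 and 11.51, and 9.63 and 9.74. Both fell more than 0.5 below day 0 by day 9. The other peaks were Lta (lymphotoxin alpha, contrast 1.23), which was none without day 4 replicate 2, and Tnf (0.78), which was none after quantile normalization. The chemokine gene Ccl5 was a dip, with 12.14 and 12.15, 10.45 and 10.45, and 11.32 and 11.30. Ifng did not pass (0.19, adjusted p = 0.347).

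Chemokine receptors and integrins had 0 peaks and 3 dips among 27 genes (1 to 3 dips with an array left out). Inhibitory receptors had 1 peak and 2 dips among 19 (4 dips with centring), and most genes of both lists were neither. For comparison, 10.8% of all genes were peaks and 3.91% dips. The integrin chain Itgb3 had 8.81 and 8.72, 8.14 and 7.84, and 9.88 and 9.81. Itgax and Itga4 dipped only slightly below day 9 (0.40 and 0.37), and neither was a dip in the fit to the 6 arrays without KU55933. Vsir, encoding the checkpoint protein VISTA, had 8.30 and 8.21, 7.55 and 7.74, and 9.23 and 9.23. The ectonucleotidase Nt5e (CD73) had a contrast of -1.06 and was no dip without either day 4 array, without day 0 replicate 1 or after quantile normalization. Lag3, with 5.57 and 5.67 on day 0, 6.19 and 6.34 on day 4, and 5.77 and 5.98 on day 9, only just met the rule against day 9 (adjusted p = 0.0471), and it was lost under several settings.

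Interferon-stimulated genes gave 8 peaks and 1 dip among 31 (4 to 8 peaks with an array left out, 4 after centring). For comparison, 10.8% of all genes were peaks and 3.91% dips. Iigp1, a GTPase that attacks the vacuoles of parasites, had 3.79 and 4.16 on day 0, 7.12 and 7.11 on day 4, and 4.25 and 4.03 on day 9. The related GTPases Igtp and Gbp3 had contrasts of 1.10 each, and Gbp3 was no peak without day 4 replicate 1. Ifi204 (1.58) spread more, with 4.43 and 5.19 on day 4, and was no peak after centring, without day 0 replicate 2 or without day 4 replicate 2. Isg15, the ubiquitin-like modifier, was the dip, with 6.28 and 6.28, 5.44 and 5.47, and 6.01 and 6.05. The Ifi200, Irg and Gbp families have close relatives whose probes may be shared. The list median was 0.13 as deposited and -0.10 with centring.

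Many neutrophil markers moved with the day 4 peaks, while fewer monocyte and macrophage markers did, beside 10.8% peaks over all genes. Of 19 tested neutrophil markers 11 were peaks (10 to 14 with an array left out) and 16 were higher by the contrast, with a median of 1.28. Chil3 had 3.17 and 3.44 on day 0, 7.88 and 7.73 on day 4, and 2.87 and 2.92 on day 9, a contrast of 4.71 ± 0.14 (adjusted p = 1.32e-06). Ngp, a neutrophil granule protein, had 3.60 and 4.17, 7.0 and 7.04, and 2.76 and 3.34. S100a8, a calcium-binding protein of neutrophils and monocytes, had 4.84 and 4.00, 6.99 and 7.07, and 2.26 and 2.35. Chil3, Mmp8, Camp and Ly6g lay below the array median on all arrays of day 0 and of day 9 without KU55933, so the folds of these genes are lower bounds. Chil3, Mmp8 and Camp exceeded it on the day 4 arrays alone, and so passed the limit for testing there. Ly6g was no peak, with 4.16 and 4.04 on day 4 and 3.54 and 3.48 on day 9. With KU55933 it read 5.32 and 5.24 on day 9, above its day 4 level.

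The summed linear signal of the neutrophil markers was 423 and 359 on day 0, 1432 and 1410 on day 4, and 2172 and 2278 on day 9. The day 9 sum came largely from Ctsg (cathepsin G), with 5.03 and 4.19, 6.38 and 6.49, and 10.90 and 10.96. Without Ctsg, a step added after the values were seen, the sums were 391 and 341, 1349 and 1320, and 263 and 289. Of 22 monocyte and macrophage markers 6 were peaks (3 to 5 with an array left out, 3 with centring), among them Clec4d with 3.29 and 3.31, 6.03 and 6.25, and 2.62 and 2.86. The scavenger receptor Msr1 had 3.24 and 3.16, 5.83 and 5.97, and 3.03 and 2.94. Clec4d and Msr1 exceeded the array median on the day 4 arrays alone, and so passed the limit for testing there. The abundant markers did not follow them: Lyz2 (lysozyme) had 10.45 and 10.56, 9.30 and 9.45, and 5.29 and 5.18. Over the 22 markers the median of day 4 minus day 0 was -0.06, and peaks were 10.8% of all genes. The summed macrophage signal was 3306 and 3704, 2897 and 3428, and 1904 and 2025.

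These sums stand beside NK marker sums of 26798 and 25538 on day 4, which include Gzmb and Prf1. The part of such cells in the peaks given above was not tested. The remaining marker lists held few peaks or dips. B cell, megakaryocyte, innate lymphoid and stem cell markers had 0 of either, and all 6 megakaryocyte markers were lower by the contrast. The single peaks of the others were Bst2 (dendritic cells, and an interferon-stimulated gene), Tfrc (erythroid cells, and the transferrin receptor of dividing cells), Prss34 (basophils) and Prg2 (eosinophils). Tfrc had 6.09 and 6.10, 8.90 and 8.90, and 6.80 and 7.02. The dip among T cell markers was Cd3d (-0.55). Peak and dip counts miss a signal that was high on day 0 and then stayed low. Summed dendritic cell markers fell from 8233 and 7886 on day 0 to 3632 and 3788 on day 4. Megakaryocyte markers fell from 2331 and 2507 to 144 and 191, and B cell markers from 1528 and 1681 to 537 and 357. T cell sums rose from 1324 and 1472 to 2270 and 2357, and erythroid and mast cell sums rose too. The members of highest signal in these lists were Thy1, Car2 and Mcpt8. The median of day 4 minus day 0 over the members was negative in each, at -1, -0.37 and -0.35. Bst2 was no peak with any array of day 4 or day 9 left out and in several other settings, Prg2 was none without day 4 replicate 1 or after centring, and Cd3d was no dip with any array of day 4 or of day 9 without KU55933 left out.

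**Figure D5:**
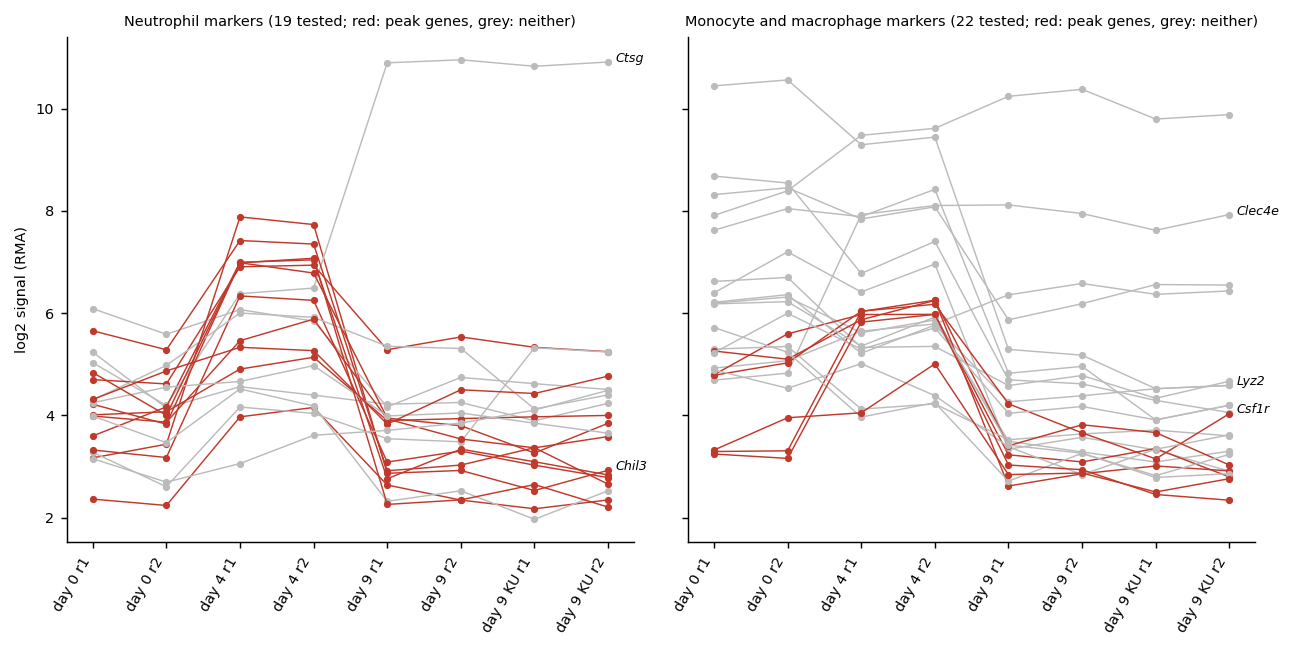
Log2 signal of each tested neutrophil marker (left) and monocyte or macrophage marker (right) on the 8 arrays, with peak genes in red. The red lines rise on the 2 day 4 arrays and are low on the day 9 arrays with and without KU55933, while Ctsg is highest on day 9 and Lyz2 is high on days 0 and 4.

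Above the array median on day 4 alone, with both day 4 arrays above it and all 4 arrays of day 0 and day 9 below, were 62 genes, of which 41 were peaks. They included Hmmr, Cdc25c, Brca1 and Fanci of the division and repair lists, beside Chil3, Mmp8, Clec4d and Msr1 of the myeloid lists. The opposite pattern, below the median on day 4 alone, held for 33 genes, of which 17 were dips (3.91% of all genes), again largely by choice. These genes were near background on the days without signal, so their differences are lower bounds.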

How the data were processed

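Per the labels' protocols, RNA was amplified, labelled with biotin and hybridised. The authors deposited log2 signals of 41345 transcript clusters, summarized by RMA per the submitters' processing notes, and a table of group averages with p-values for 11036 clusters made with the Transcriptome Analysis Console. For neither tool was a version or build given in the sources used here. For the 1877 peak and dip genes it lists, the averages lay within 0.005 of the array means, and no contrast differed in sign.

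In the supplied annotation 23521 clusters name 1 symbol, 1820 several and 16004 none. The first kind was used, with the brightest cluster for each of 22180 genes (1082 had several), and 22139 of the symbols were in the RefSeq table. A gene was tested if it reached the median (percentile 50) of an array's clusters on 2 or more arrays. A linear model of the 4 groups was fitted with limma 3.58.1 (R 4.3.3; 4 residual and 3.69 prior degrees of freedom), with Benjamini-Hochberg adjustment over the 13998 genes of each comparison and calls below 0.05. The day 4 arrays enter every comparison, so the comparisons share them. Arrays of the same replicate number showed no shared shift (correlations of -0.03 to 0.05 over 6 pairings). This cannot tell whether they share an animal or preparation. The labels call replicates biological without naming animals or cultures. The code was tested on simulated data.

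Genes, lists and members were chosen with earlier results of these data known, and lists are described by counts without a test. Named genes are the 12 peaks and 12 dips of highest prominence whose arrays do not overlap (predicted, antigen receptor and small RNA genes left out), the 4 highest of each pathway list with at least 3, the 3 highest of each marker list, and a set of NK and cell cycle genes. Other genes complete a count or were chosen after their values were seen. Alternatives were another dim filter or none, averaged clusters, centring, quantile normalization, a variance trend, robust fitting, the 6 arrays without KU55933, a replicate block, each array left out, a 2-fold minimum and the authors' averages. Figures were drawn with Python 3.11.15 and matplotlib 3.10.9.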

Additional observations from a re-analysis of the deposited data

Results flagged for a closer look

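The comparisons above use clusters that name 1 gene, and the same rule was also met outside them. Among 1103 clusters that name several genes, 94 were peaks (8.52%) and 31 were dips (2.81%). Among 7626 clusters that name no gene, 143 were peaks (1.88%) and 171 were dips (2.24%). Both kinds were called in a separate fit of all clusters that reached the array median on at least 2 arrays. The 10.8% and 3.91% given above come from the fit of 13998 genes, with 1 cluster each. These shares are therefore not on the same footing.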

How the results depend on the processing

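Centring each array on its median shifted every contrast by -0.23 and turned the calls from 64.1% higher to 38.7% higher, with 4696 lower genes and 1158 dips, while the 1066 peaks were all among the 1512. Quantile normalization gave 57.2% higher. A 2-fold minimum in the contrast left 1327 higher and 478 lower genes, 921 peaks and 221 dips. With 1 array left out the counts ran from 2934 to 4674 for higher genes, 1288 to 2717 for lower genes, 850 to 1878 for peaks and 281 to 687 for dips. Without day 4 replicate 1 there were 850 peaks and 303 dips, without day 4 replicate 2 905 and 281, and without day 9 replicate 1 949 and 339; an arm left with 1 array is assumed to vary like the others. With the replicate number as a block, for which the labels name no pairing, there were 1405 peaks and 513 dips. The contrast of Ifng changed sign with centring (-0.04) and quantile normalization (-0.06), and that of Atm with quantile normalization (-0.03), and neither passed as deposited. Of 117 named peak and dip genes, 20 lost their class when an array was left out and 10 in another setting. Of 1258 list counts, a step added after seeing the data, 168 moved by more than 1.5 times, mostly small counts. The cause was not tested. Signals near background make folds lower bounds.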
